A study of Mus musculus with 9 samples.

Results

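The genes described here encode the vacuolar proton pump (V-ATPase), its accessory subunits, the transporters and the carbonic anhydrase that work beside it in acid secretion, the cathepsins and the lysosomal membrane glycoproteins Lamp1 and Lamp2. Members were all protein-coding genes whose symbol begins with Atp6v or Atp6ap or consists of Cts and a single letter, together with Clcn7, Ostm1, Car2, Slc4a2, Tcirg1, Lamp1 and Lamp2. Atp6v0d2, Ctsk and Ctsg were left out by the rule and serve below as references. The rule used names and no measured value, and gave 48 genes of the 39179 in the count tables. They comprised 13 V1 subunits, 9 V0 subunits, 3 accessory subunits, 4 genes of acid and chloride transport, 13 cysteine cathepsins, 3 aspartic or serine cathepsins, Lamp1, Lamp2 and Atp6v1fnb, which matched by its name alone and had 3 and 5 counts in juvenile replicates 3 and 5 and none elsewhere.

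RNA was sequenced from capillaries with their surrounding cells, cut by laser microdissection (LMD) from the ossification front (OF) of the femur, the zone of new bone beneath the growth plate. All mice were Tg(TIE2GFP)287Sato/J animals, in which the Tie2 promoter drives green fluorescent protein in endothelial cells. The fluorescence guided the laser, and no cells were sorted, so each library holds every cell type of the excised tissue. The 5 juvenile libraries came from mice aged 4 weeks and the 4 adult libraries from mice aged 12 weeks, with no other treatment named. The labels number the libraries within an age and name no animal, so p-values measure the spread between these libraries.

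The V-ATPase has a cytosolic V1 sector, which hydrolyses ATP, and a membrane V0 sector, through which protons pass. In osteoclasts, the cells that resorb bone, the pump acidifies lysosomes and also the sealed space beneath the ruffled border, where acid dissolves mineral and secreted proteases digest the collagen matrix. Carbonic anhydrase 2 (Car2) supplies the protons, the chloride/proton exchanger Clcn7 with its partner Ostm1 balances the charge, and the anion exchanger Slc4a2 removes bicarbonate on the opposite side. Loss of Tcirg1, Clcn7, Ostm1 or Car2 causes osteopetrosis, a failure of bone resorption. Many other members act in the lysosomes of nearly all cells.

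Many lysosomal genes carry in their promoters a CLEAR element, the sequence read by the MiT/TFE transcription factors, of which Tfeb is the best known. RefSeq promoters of build GRCm38.p6, each running from 250 bases before to 50 bases after a transcription start, were matched by symbol for 37 of the 48 members, which have 45 such promoters. CACGTG, the E-box at the core of the element, stood in 10 of these 45 promoters (22.2%), against 7.15% of all 32851 promoters and 9.93% of the 12697 promoters of genes tested in these libraries. The 8-base core TCACGTGA, which contains CACGTG, stood in 6 of the 45 (13.3%), against 0.974% of all promoters and 1.84% of those of tested genes. Both motifs read the same on either strand. GGGCGG was found in 57.8% of member promoters and 61.9% of those of tested genes, CCAAT in 33.3% and 37.3%, and TATAAA in 8.89% and 6.96%, each searched on both strands. The counts describe letters in these windows, and no binding was measured.

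The 6 promoters that hold the 8-base core are shown because the feature was not used to choose the genes and is shared by pump, transporter and protease genes. Each window has 60 bases, is written 5′ to 3′ along the gene's own strand, and has TCACGTGA in capitals. In GRCm38.p6 the windows lie at chr8:105566035-105566094 (minus strand), chr17:26676372-26676431 (plus), chr16:44139358-44139417 (minus), chr17:25133371-25133430 (plus), chr2:164833734-164833793 (plus) and chr7:142387893-142387952 (minus).
Atp6v0d1: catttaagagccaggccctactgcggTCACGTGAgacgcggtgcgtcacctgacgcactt
Atp6v0e: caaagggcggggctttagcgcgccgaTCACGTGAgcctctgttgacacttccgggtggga
Atp6v1a: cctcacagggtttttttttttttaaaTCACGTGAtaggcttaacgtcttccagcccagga
Clcn7: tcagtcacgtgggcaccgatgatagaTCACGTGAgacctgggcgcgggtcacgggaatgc
Ctsa: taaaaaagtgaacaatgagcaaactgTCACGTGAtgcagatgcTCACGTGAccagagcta
Ctsd: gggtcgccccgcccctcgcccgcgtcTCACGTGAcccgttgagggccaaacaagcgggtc
Counted with the first transcribed base as 1, the core began at base -4 in Atp6v0d1, 3 in Atp6v0e, -132 in Atp6v1a, 7 in Clcn7 and -99 in Ctsd. Ctsa held it in 2 places, from -13 and from 5. Of these 6 genes only Atp6v0e passed the test between the ages, as described below, a test that 3.88% of all tested genes passed. Of the other members that passed, Atp6v1h, Car2 and Ctse had no matched promoter and could not be searched. Atp6v1f had one without the core.

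Libraries held 4856833 to 7398483 counts in juvenile and 5821596 to 8077362 in adult mice, and 3 counts, the limit that a count of 0 allows, equalled 0.371 to 0.618 CPM, the counts of a gene scaled to a common library total. Both ages expressed osteoclast markers: the summed CPM of 12 markers ran from 12172 to 20452 in juvenile and from 19141 to 27442 in adult libraries, mostly Acp5, Mmp9 and Ctsk, and 3 of the 12 (Acp5, Nfatc1 and Atp6v0d2) were higher in adult. The 12 endothelial markers summed to 602 to 1028 CPM in juvenile and 835 to 1089 CPM in adult libraries, with 0 passing the test by edgeR, DESeq2 or limma voom and 0 at an unadjusted p under 0.05. Blood cell markers differed more: erythroid markers summed to 603 to 2835 CPM in juvenile and 5854 to 41933 in adult libraries, highest in adult replicate 4, and neutrophil markers to 18.5 to 67.4 against 109 to 5128, lowest in adult replicate 2. Megakaryocyte markers summed to 11.8 to 25.4 CPM in juvenile and 64.8 to 4828 in adult libraries, again highest in adult replicate 4, and 1 of 3 tested, Pf4, passed, higher in adult. Macrophage markers summed to 280 to 381 and 663 to 1318 CPM, carried by Csf1r, a receptor that osteoclasts share with macrophages and the 1 of 9 tested that passed. The mean log2 CPM over all 12 macrophage markers, with a prior count of 2, overlapped, at 0.07 to 1.74 in juvenile and 0.05 to 4.30 in adult libraries, and Vsig4 was at or below the limit in every library. Osteoblast markers, led by type I collagen, were higher in juvenile for 6 of 12 and higher in adult for 2. Chondrocyte markers summed to 330 to 953 CPM in juvenile and 620 to 4779 in adult libraries, highest in adult replicate 2. Of the 7 tested, 2 were higher in adult. In addition, juvenile replicates 4 and 5 carried more Y-linked than Xist counts, a pattern no adult library had. Within adult mice this difference could not be examined.

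Of the 48 members, 37 had enough counts to be tested. Of the 37, 5 were higher in adult at an adjusted p under 0.05 (edgeR quasi-likelihood test, Benjamini-Hochberg over all 13418 genes tested) and 0 were higher in juvenile, where 3 had an unadjusted p under 0.05 and DESeq2 called 1. The 5 were Atp6v1f, Atp6v1h, Atp6v0e, Car2 and Ctse. Ctse entered the test through the adult libraries alone, so that a higher adult level was built into its selection. Over all tested genes 3.88% were called, 1.89% as higher in adult and 1.99% as higher in juvenile. The fitted log2 fold change, given here as juvenile over adult so that a negative value means a higher level in adult, was below 0 for 27 of the 37 members against 50.5% of all tested genes, and its median was -0.53 against -0.01. An unadjusted p under 0.05 was reached by 21 members, 18 of them higher in adult, against 17.3% and 8.76% of all tested genes. For 8 members every adult library lay above every juvenile library, and for none was it the reverse. Over all tested genes the libraries of the ages were separated in this way for 9.15%, 4.08% with adult higher and 5.07% with juvenile higher. All 48 members together took 0.599 to 0.870% of juvenile and 1.07 to 1.25% of adult counts. Of the 31 members that passed the count cutoff in every library, a set without Ctse, 4 were called and the median log2 fold change was -0.51. In that set 7 had every adult library above every juvenile library. The 8 separated members were Atp6v1f, Atp6v1h, Atp6v1e1, Atp6v0c, Atp6v0e, Atp6ap2, Ctsa and Ctse. In bulk tissue, more cells of a type and more RNA per cell cannot be told apart.

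The number of called members rested on few libraries. It was 2 without juvenile replicate 4, 2 without juvenile replicate 5 and 1 without both (Ctse, which entered the test through the adult libraries alone). It was 3 without juvenile replicate 2, juvenile replicate 3 or adult replicate 3. No share over all tested genes was computed for these refits. DESeq2, the tool of the study, called 15 members, 14 of them higher in adult, against a background of 9.47% of its tested genes, and limma voom with sample weights called 6 against 3.43%. Besides those of edgeR, DESeq2 called Atp6ap1, Atp6ap2, Atp6v0b, Atp6v0c, Atp6v1b2, Atp6v1c1, Atp6v1e1, Atp6v1g1 and Ctsa higher in adult and Ctsh higher in juvenile. The median log2 fold change was steadier, between -0.60 and -0.46 when each library was left out in turn and -0.42 without juvenile replicates 4 and 5.

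**Figure D1:**
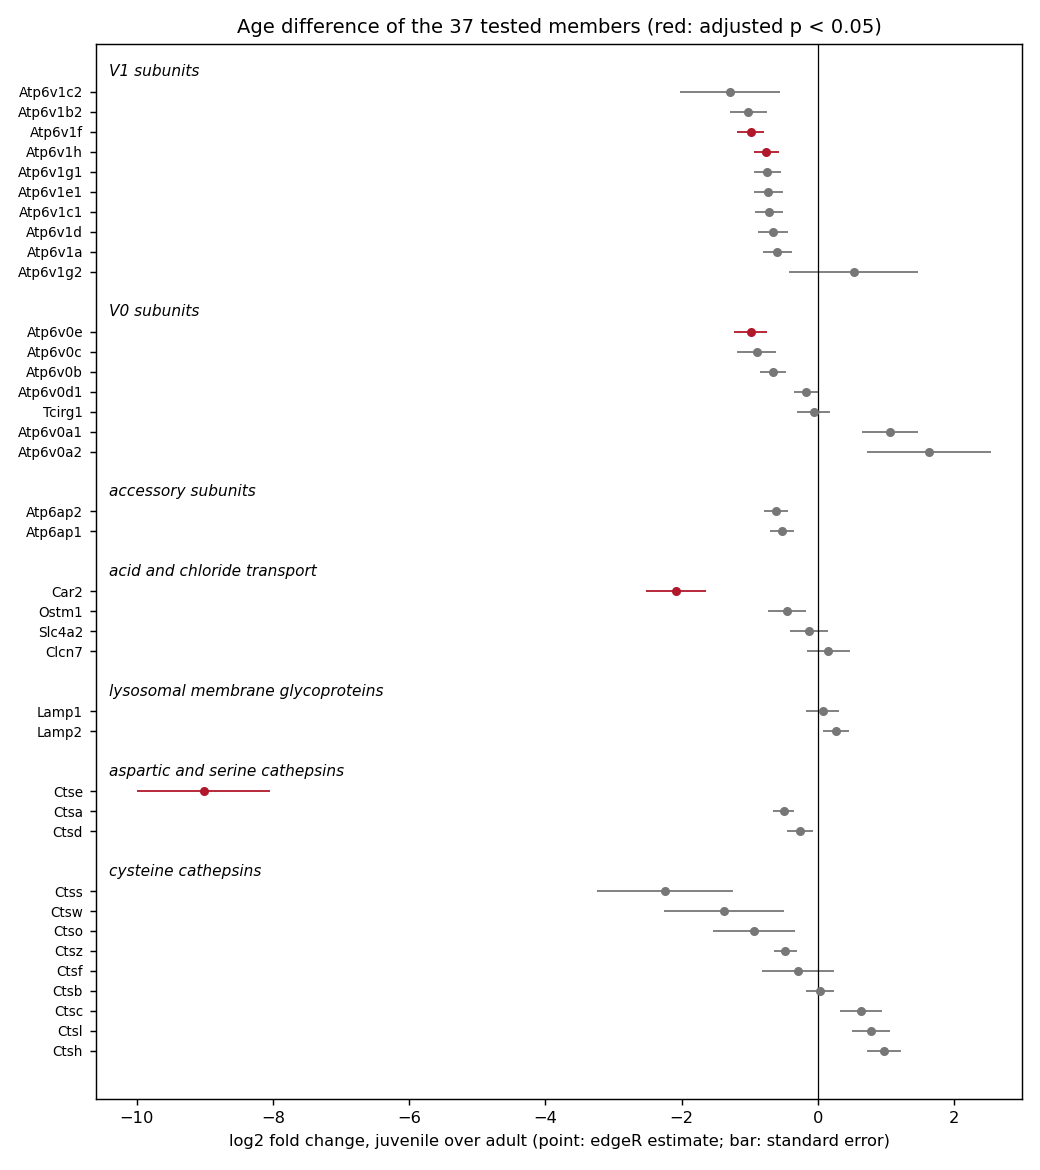
Log2 fold change (juvenile over adult; points, edgeR estimates; bars, standard errors) of the 37 tested members, grouped by role, with adjusted p under 0.05 in red. Of the 10 tested V1 subunits, 9 lie left of 0, the side of higher adult levels, whereas Tcirg1, Clcn7, Ctsb and Lamp1 lie near 0 and Ctsh lies to the right.

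Among V1 subunits, 2 of the 10 tested were higher in adult, 9 had a log2 fold change below 0 and their median was -0.74. Over all tested genes 1.89% were called higher in adult and 50.5% had a log2 fold change below 0. Atp6v1f (chr6:29467718-29470512, GRCm38), which encodes subunit F of the central stalk, had 1735, 1738, 1269, 1188 and 946 normalized counts in juvenile replicates 1 to 5 and 2735, 2856, 3038 and 2270.2 in adult replicates 1 to 4. Every adult library lay above every juvenile library. The log2 fold change was -0.99 (SE 0.20, edgeR adjusted p = 0.0166), a 1.98-fold higher adult mean, and it passed the test without each library in turn, but not without both juvenile replicates 4 and 5 (-0.78, adjusted p = 0.123, edgeR).

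Atp6v1h (chr1:5070018-5162529), the regulatory subunit H that couples hydrolysis to the membrane sector, had 554, 503, 654, 421 and 420.4 normalized counts in juvenile and 822, 922, 918 and 789 in adult libraries. The ages did not overlap, and the log2 fold change was -0.76 (SE 0.19, edgeR adjusted p = 0.0429). This call lay near the threshold and held in 1 of the 9 fits that left out a library, with adjusted p from 0.0431 to 0.113 and a log2 fold change from -0.86 to -0.69. Its exons overlap Rgs20 on the opposite strand by 127 bases.

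The catalytic subunit A gene, Atp6v1a, had 2476, 1405, 1612, 1356 and 1534 normalized counts in juvenile and 2152, 3225, 2803 and 1987 in adult libraries. Juvenile replicate 1 lay within the adult range and the other juvenile libraries below it, and the difference did not pass the test (log2 fold change -0.60, SE 0.21, edgeR adjusted p = 0.151). Subunit B, which shares the nucleotide-binding sites with A, was represented by Atp6v1b2 alone, since Atp6v1b1, the form of kidney and other acid-secreting epithelia, had no count in any library. Atp6v1b2 stood at 1967, 1125, 1042, 735 and 978 in juvenile and 2319, 2384, 3183 and 1603 in adult libraries (log2 fold change -1.02, SE 0.27, edgeR adjusted p = 0.0560). Again juvenile replicate 1 reached above the lowest adult library, replicate 4. Without juvenile replicate 1 the adjusted p was 0.0133 and without adult replicate 4 it was 0.0453 (edgeR). These 2 were the only passes among the 9 fits that left out a library, where adjusted p reached 0.141 (edgeR).

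The stalk subunit genes Atp6v1c1, Atp6v1d, Atp6v1e1 and Atp6v1g1 had log2 fold changes between -0.75 and -0.66. None passed the edgeR test in all 9 libraries (adjusted p from 0.0560 to 0.124). DESeq2 called Atp6v1c1, Atp6v1e1 and Atp6v1g1 there (adjusted p = 0.0115, 0.0167 and 0.00628), but not Atp6v1d. Atp6v1e1 had 1805, 2060.5, 1759, 1123 and 1071 normalized counts in juvenile and 2501, 2550.2, 3121 and 2222 in adult libraries, with no overlap. Atp6v1g1, the most abundant V1 gene per kilobase of exon at both ages, had 3615, 2743, 3041, 2642 and 2179 in juvenile and 5304, 5191, 5465 and 3120.2 in adult libraries. Its lowest adult value was that of replicate 4, and without that library Atp6v1g1 passed (-0.92, edgeR adjusted p = 0.0201). That was the only pass among the 9 fits that left out a library, where adjusted p reached 0.137 (edgeR). Atp6v1c1 showed the same arrangement, with 763, 529.8, 787, 549 and 674 in juvenile libraries, 1206, 1193 and 1183 in adult replicates 1 to 3 and 759 in adult replicate 4, which lay within the juvenile range. Without adult replicate 4 its adjusted p was 0.0364, again the only pass among these 9 fits, where adjusted p reached 0.167 (edgeR). For both genes the omitted library was the adult one nearest the juvenile values, so a lower p was built into that choice.

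**Figure D2:**
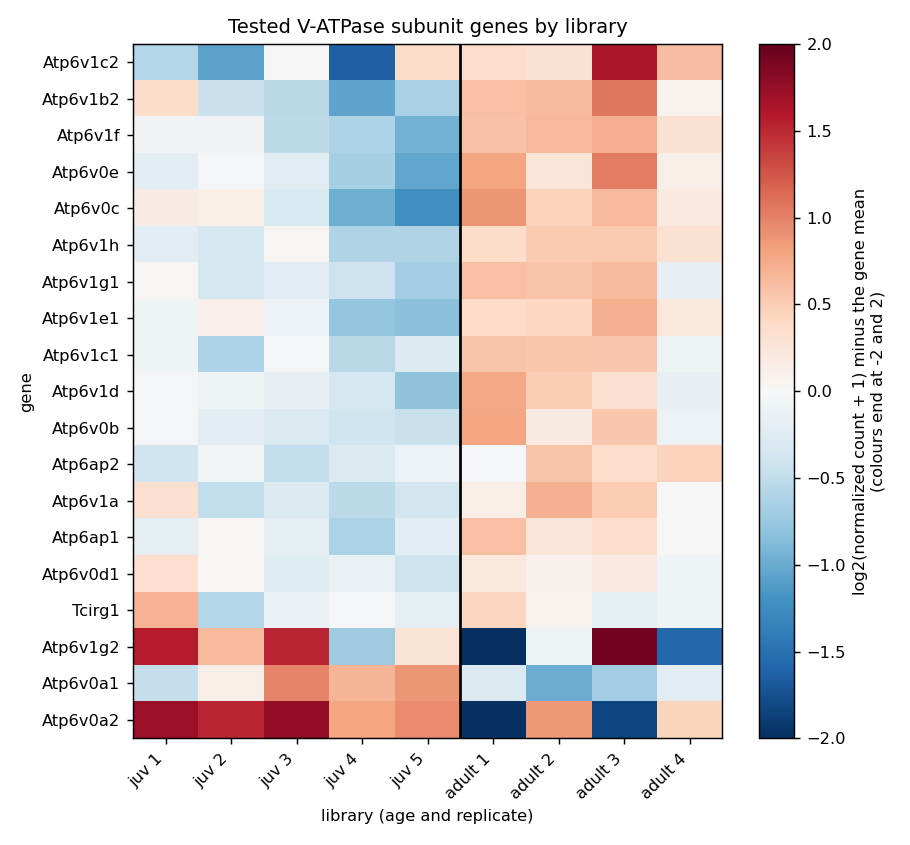
Log2(normalized count + 1) minus the gene's mean for the 19 tested V-ATPase genes (rows, ordered by fold change) in each library (columns; line, border between ages). Most rows are blue in juvenile and red in adult libraries, juvenile replicates 4 and 5 hold many of the bluest cells, and adult replicate 4 is paler than the other adult libraries. Atp6v0a1 and Atp6v0a2, at the bottom, run the other way.

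Of 7 tested V0 genes 1 was higher in adult, 5 had a log2 fold change below 0 and the median was -0.17. The shares over all tested genes were 1.89% called higher in adult and 50.5% below 0. Atp6v0e (chr17:26663231-26699647), which encodes the small membrane subunit e, had 2086, 2388, 2082, 1545 and 1187 normalized counts in juvenile and 4229, 2867, 4977 and 2633 in adult libraries. The ages did not overlap, the adult mean was 1.98-fold higher and the log2 fold change was -0.98 (SE 0.24, edgeR adjusted p = 0.0400). The call was lost in 6 of the 9 fits that left out a library, where adjusted p ran from 0.0291 to 0.109 over the 9 fits, and without juvenile replicates 4 and 5 (-0.75, adjusted p = 0.233, edgeR). Its paralog Atp6v0e2 was too low to test, with 53, 34, 0 and 25 counts in adult libraries and 8 and 7 in juvenile replicates 2 and 4, the only juvenile libraries with any.

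Atp6v0c and Atp6v0b encode the proteolipids of the rotating membrane ring. Atp6v0c had 741, 726, 536, 336 and 282 normalized counts in juvenile and 1217, 908, 1038 and 752 in adult libraries, with no overlap (log2 fold change -0.90, SE 0.29, edgeR adjusted p = 0.109). These values are uncertain, because the pseudogene Atp6v0c-ps2 is 99.7% identical to it over 387 aligned bases and had nearly as many counts. They ran from 269 to 744 normalized counts in juvenile and 757 to 1301 in adult libraries. Reads of the gene may be divided between both. Atp6v0b had 3856, 3443, 3251, 2995 and 2900.1 in juvenile and 6887, 4488, 5748 and 3649 in adult libraries, of which only adult replicate 4 lay within the juvenile range (log2 fold change -0.66, SE 0.19, edgeR adjusted p = 0.0744, and 0.0333 without adult replicate 4). Atp6v0b passed in no other fit that left out a library, where adjusted p reached 0.169 (edgeR).

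Tcirg1 (chr19:3896050-3907133), the a3 subunit that targets the pump to the ruffled border of osteoclasts, had an estimate near 0. Its libraries held 4721, 1943, 2666, 2891 and 2566 normalized counts in juvenile and 3935, 3084, 2591 and 2773 in adult libraries. The juvenile libraries spanned the whole adult range, and the difference was smaller than its error (log2 fold change -0.07, SE 0.24, edgeR adjusted p = 0.939). Atp6v0d1, the d1 subunit of the stalk that joins V0 to V1, likewise overlapped between the ages, with 1096, 897, 735, 796 and 657 in juvenile and 1011, 928, 1003 and 824 in adult libraries (log2 fold change -0.17, SE 0.18, edgeR adjusted p = 0.727).

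The remaining a subunit genes had positive estimates. Atp6v0a1, found in many tissues and abundant in neurons, had 85.3, 130.2, 238, 192 and 221 normalized counts in juvenile and 97.9, 59.7, 73.8 and 101 in adult libraries (log2 fold change 1.05, SE 0.42, edgeR adjusted p = 0.198). Atp6v0a2, associated with the Golgi and endosomes, had 249, 217, 256, 129.6 and 145 in juvenile and 0, 136, 20.2 and 102 in adult libraries (log2 fold change 1.63, SE 0.91, edgeR adjusted p = 0.396). Neither passed the test, and adult replicate 2 lay within the juvenile range of Atp6v0a2. Atp6v0a4, the form of renal and inner ear epithelia, had 3 counts in juvenile replicate 2 and none elsewhere.

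The genes of a subunit were also compared within each library, as their share of counts per kilobase of exon, a measure that no scaling between libraries can change. Tcirg1 made up 91.3% ± 2.8 of a subunit counts in the juvenile libraries (SD, n = 5) and 96.7% ± 1.5 (SD, n = 4) in the adult libraries. The ranges, 88.6 to 95.3% and 95.2 to 98.3%, overlapped slightly, at juvenile replicate 1 and adult replicate 4. For the d subunit the ranges were apart: Atp6v0d1 held 50.05, 58.6, 49.4, 62.2 and 55.6% in juvenile and 42.2, 39.9, 42.1 and 41.8% in adult libraries. The remainder belonged to Atp6v0d2, the reference known for its part in osteoclast fusion, which thus held 44.8% ± 5.5 of the juvenile and 58.5% ± 1.1 of the adult d subunit counts. Atp6v0d2 itself was higher in adult (1657, 959, 1142, 732 and 796 normalized counts in juvenile, 2099.6, 2120.5, 2089.6 and 1739 in adult libraries, log2 fold change -0.93, SE 0.23, edgeR adjusted p = 0.0400).

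In the V1 sector the widely expressed form prevailed at both ages. Of C subunit counts per kilobase Atp6v1c1 held 92.8% ± 3.2 across juvenile and 89.3% ± 4.5 across adult libraries (SD, n = 5 and 4), and the ranges overlapped. Its paralog Atp6v1c2 was low, at 8.25 to 35.9 normalized counts in juvenile and 34.6 to 88.5 in adult libraries (log2 fold change -1.29, SE 0.73, edgeR adjusted p = 0.404), and shares 50 exonic bases with Pdia6 on the opposite strand. Atp6v1g1 held 99.0% ± 0.47 (SD, n = 5) and 99.6% ± 0.52 (SD, n = 4) of G subunit counts, beside 2.18 to 144 normalized counts of Atp6v1g2 over the 9 libraries (log2 fold change 0.52, SE 0.95, edgeR adjusted p = 0.860). Atp6v1e2 and Atp6v1g3 had no count in any library, so that Atp6v1e1 was the sole E subunit gene seen at this depth.

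**Figure D3:**
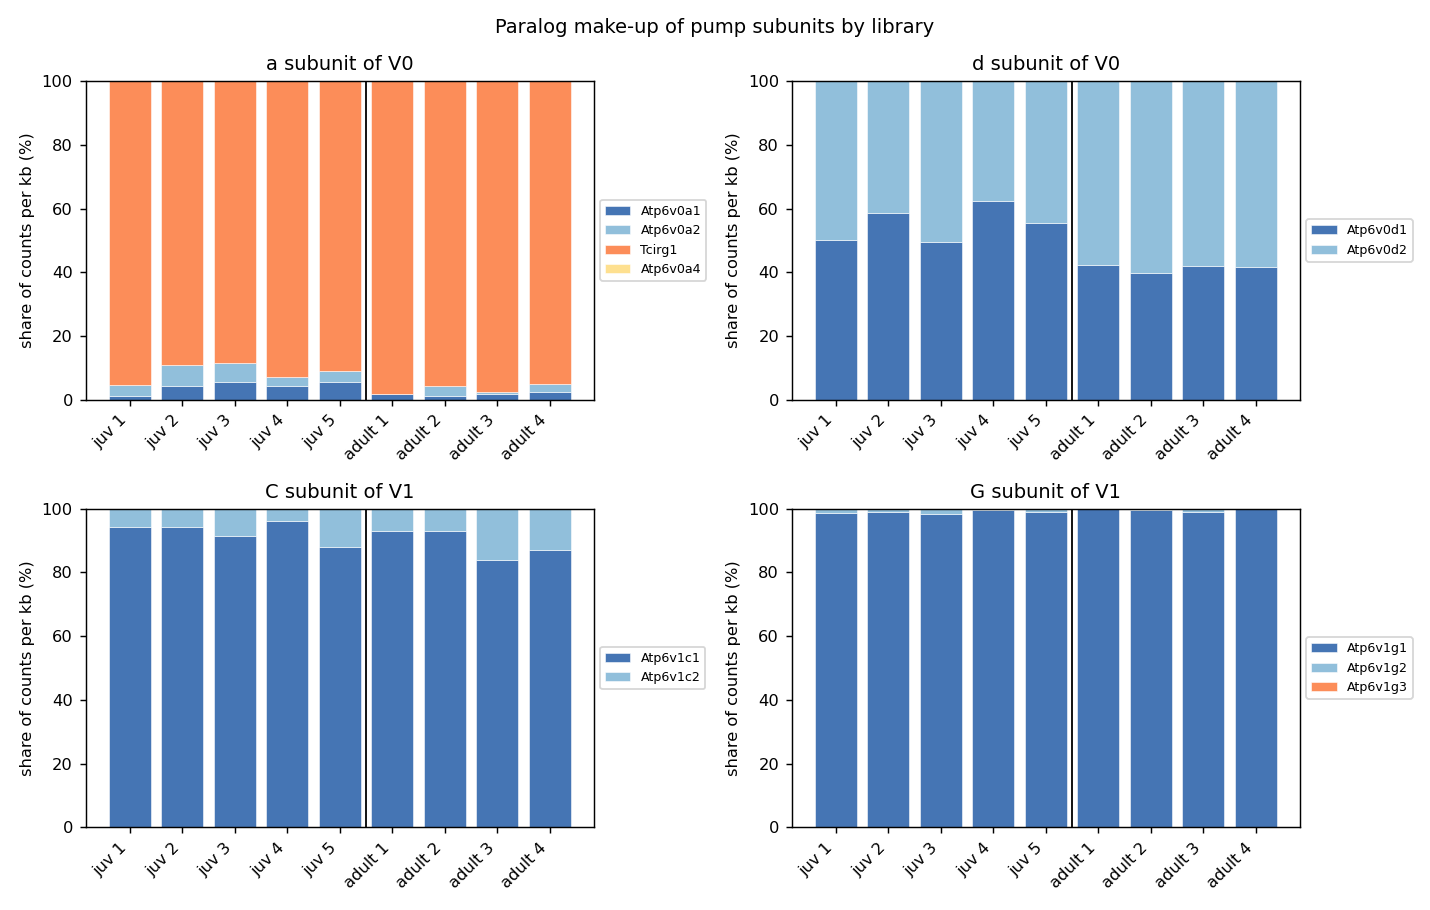
Share of each gene in the counts per kilobase of its subunit (stacked bars, percent) in each library (line, border between ages). Tcirg1, Atp6v1c1 and Atp6v1g1 fill most of their bars at both ages, and Atp6v0d1 is at 49.4 to 62.2% in juvenile and 39.9 to 42.2% in adult libraries, the rest being Atp6v0d2.

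The accessory subunits, which assist assembly and trafficking of the pump, had estimates below 0. Atp6ap2, also known as the prorenin receptor, had 823, 1041, 768, 889.5 and 1004 normalized counts in juvenile and 1059, 1608, 1379 and 1493 in adult libraries, with no overlap but only a small gap at adult replicate 1 (log2 fold change -0.61, SE 0.18, edgeR adjusted p = 0.0749, and 0.0340 without adult replicate 1). Atp6ap2 passed in no other fit that left out a library, where adjusted p reached 0.166 (edgeR). Atp6ap1 had 1952, 2303, 1979.5, 1444 and 1908 in juvenile and 3395, 2640.3, 2837 and 2225 in adult libraries (log2 fold change -0.53, SE 0.18, edgeR adjusted p = 0.117). Both genes, like Lamp2, lie on the X chromosome. Atp6ap1l had no count in any library.

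Summed per kilobase, the V1 genes reached a normalized count of 5030.5 ± 1010 across juvenile and 8820.5 ± 1620 across adult libraries (SD, n = 5 and 4), 1.75-fold more. The highest juvenile library, replicate 1, and the lowest adult library, replicate 4, were at 6455 and 6454. The V0 sum was 3425 ± 584 (SD, n = 5) at the younger and 5041 ± 1118 (SD, n = 4) at the older age, 1.47-fold more, with overlap between 3812 and 4348. No test was made on these sums. Adult replicate 4 was the lowest adult library for 13 of the 19 tested V-ATPase genes, and juvenile replicate 5 the lowest juvenile library for 9 and replicate 4 for 6. Adult replicate 4 also had the highest erythroid markers, and juvenile replicates 4 and 5 the lowest osteoclast markers of the juvenile group, 12172 and 13376 summed CPM. Over all libraries the osteoclast marker sums overlapped between the ages from 19141 to 20452 CPM, with adult higher for 3 of 12 markers. Their mean log2 CPM, in which Acp5 weighs no more than the other markers, overlapped over most of the range, at 7.31 to 7.91 in juvenile and 7.37 to 8.14 in adult libraries. The part of these cells and libraries in the pump results was not tested.

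Of the 4 genes of acid and chloride transport, only Car2 passed the test, which 3.88% of all tested genes passed. Car2 (chr3:14886273-14900770), the carbonic anhydrase of osteoclasts and also of red blood cells, had 1395, 616, 707, 637 and 388 normalized counts in juvenile and 1200.0, 2142, 3144 and 6238 in adult libraries. Juvenile replicate 1 lay above adult replicate 1, and adult replicate 4 stood far above the other libraries. The log2 fold change was -2.09 (SE 0.44, edgeR adjusted p = 0.0195), a 4.25-fold higher adult mean. The call was lost in 5 of the 9 fits that left out a library, with adjusted p from 0.00785 to 0.0583 over the 9 fits, and the log2 fold change was -1.55 without adult replicate 4 (adjusted p = 0.0532, edgeR).

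Erythroid markers were compared with Car2 library by library. Their summed level was 2835, 1106, 754, 796 and 603 CPM in juvenile and 8937, 5854, 12519 and 41933 CPM in adult libraries, all 12 had a log2 fold change below 0 and 9 of the 12 passed the test. Juvenile replicate 1 and adult replicate 4 were each highest of their age in both Car2 and these markers. Adult replicate 1 was lowest of its age in Car2, below juvenile replicate 1, but it was not lowest in the summed markers. By mean log2 CPM over the 12 markers, adult replicate 1 was lowest of its age. It stood at 5.44 there, against 7.11, 7.88 and 9.31 in adult replicates 2 to 4 and 3.08 to 3.90 in juvenile libraries. No defining erythroid marker was at 0 in every library. Megakaryocyte markers were highest in adult replicate 4 as well, at 4828 CPM against 64.8 to 657 in the other adult libraries. The part of these cells in the Car2 result was not tested.

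The chloride and bicarbonate transporters overlapped between the ages. Clcn7 (chr17:25133391-25162104) had 1079, 562, 776, 614 and 865 normalized counts in juvenile and 334, 1131, 791 and 548 in adult libraries (log2 fold change 0.15, SE 0.32, edgeR adjusted p = 0.880), and the adult libraries held both the highest and the lowest value. Ostm1 had 434, 573, 553, 304 and 229 in juvenile and 545, 619, 689.5 and 451 in adult libraries (log2 fold change -0.46, SE 0.28, edgeR adjusted p = 0.453). Slc4a2 had 1162, 398, 679, 557 and 774 in juvenile and 1016, 768, 638 and 709 in adult libraries (log2 fold change -0.13, SE 0.28, edgeR adjusted p = 0.881). The exons of Slc4a2 share 1141 bases with Fastk, and those of Ostm1 410 bases with Gm15200, both on the opposite strand.

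**Figure D4:**
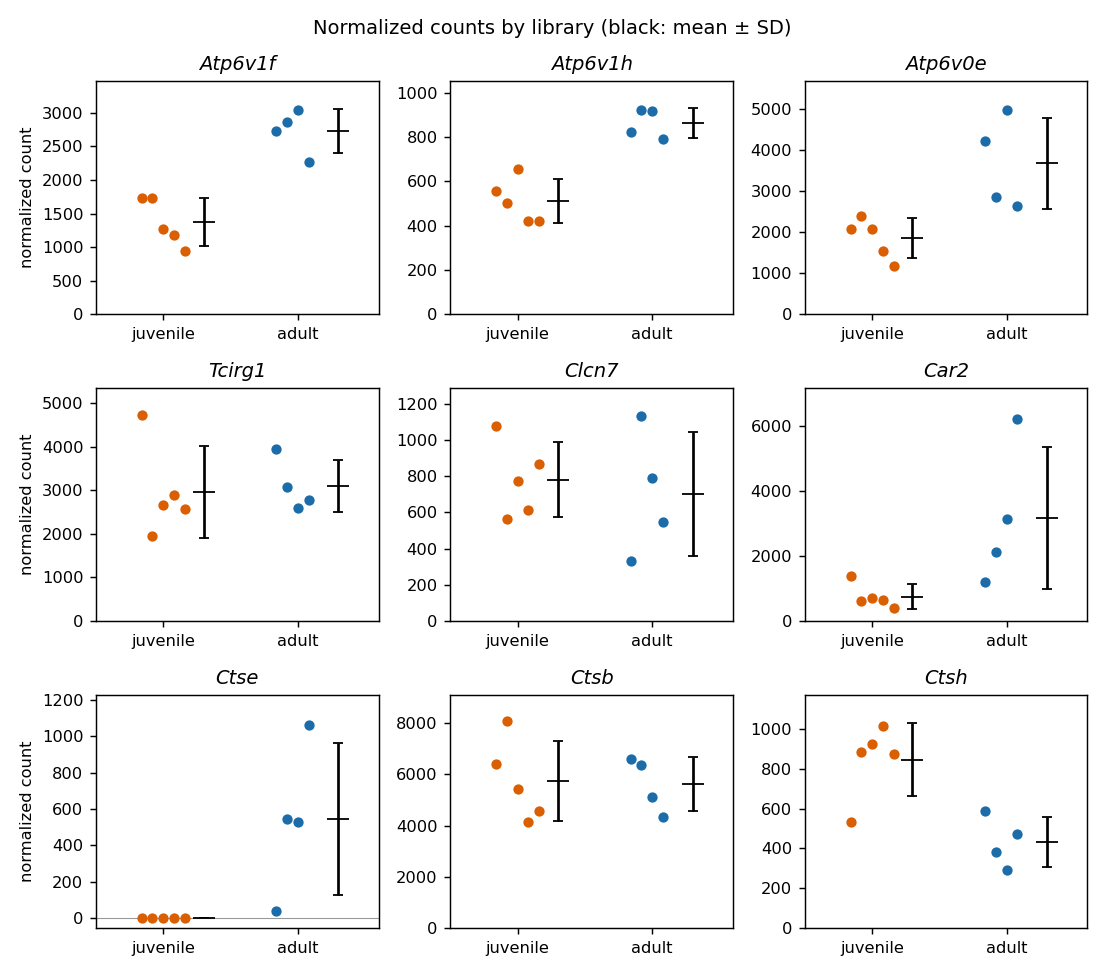
Normalized counts of 9 members in each library (points, replicates in label order from left to right; black, mean ± SD, 5 juvenile and 4 adult libraries). Atp6v1f, Atp6v1h, Atp6v0e and Ctse do not overlap between the ages, Car2 overlaps at 1 juvenile and 1 adult library, Tcirg1, Clcn7 and Ctsb overlap broadly, and Ctsh is lower in most adult libraries.

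Of 16 cathepsins 12 were tested, and only Ctse passed (8.33%, against 3.88% of all tested genes). Ctse (chr1:131638306-131675505) encodes cathepsin E, an intracellular aspartic protease of gut, immune and red cells. It had 0, 1, 2, 0 and 1 raw counts in juvenile libraries and 56, 518, 683 and 1354 in adult libraries, or 40.6, 543, 530.4 and 1065 normalized counts. Ctse entered the test through the adult libraries alone, so that a difference was built into its selection. The share of 8.33% rests on Ctse alone. Its fitted log2 fold change was -9.02 (SE 0.97, edgeR adjusted p = 0.000546) and passed in each of the 9 fits that left out a library and without juvenile replicates 4 and 5. These fits repeat the same selection and lend the difference no support. Since no juvenile library held more than 3 counts, the size of that estimate depends on how counts near 0 are treated.

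Ctse was highest in adult replicate 4, where erythroid markers were highest, and lowest among adult libraries in replicate 1. The summed erythroid markers were lowest among adult libraries in replicate 2. Their mean log2 CPM was lowest in replicate 1, at 5.44 against 7.11 to 9.31 in the other adult libraries. The summed megakaryocyte markers were also highest in adult replicate 4. Neutrophil markers, of which 8 of 9 tested were higher in adult, were lowest among adult libraries in replicate 2, at 109 CPM against 3812 to 5128 in the other adult libraries, whereas Ctse was not low there. The part of these cells in the Ctse result was not tested. The reference Ctsg, a protease of neutrophil granules, had 0, 8.14, 6.68, 0 and 0 normalized counts in juvenile and 1018, 0, 430.2 and 491 in adult libraries, and passed the count filter in too few libraries to be tested.

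Ctss, the cathepsin of antigen-presenting cells, had 198, 39.8, 14.7, 34.2 and 23.9 normalized counts in juvenile and 416, 1.05, 439 and 323 in adult libraries. Adult replicate 2 was below every juvenile library and the other adult libraries above, and the difference did not pass the test (log2 fold change -2.24, SE 0.999, edgeR adjusted p = 0.265). Without adult replicate 2 the log2 fold change was -2.67 and passed (adjusted p = 0.0489, edgeR). Ctss passed in no other fit that left out a library, where adjusted p reached 0.440 (edgeR). Macrophage markers were also low in adult replicate 2, at a mean log2 CPM of 0.05, below every juvenile library (0.07 to 1.74) and the other adult libraries (2.84 to 4.30). Their sum of 663 CPM there was mostly Csf1r, with 3784 counts against 0 to 54 for each other marker. The neutrophil sum was the lowest of the adult libraries there too, as given above. The part of these cells in the Ctss values was not tested. Ctsw, a protease of cytotoxic lymphocytes, also had its lowest adult value in replicate 2, at 7.34 against 39.6 to 204 in the other adult libraries, and 6.65 to 53.4 in juvenile libraries (log2 fold change -1.38, SE 0.88, edgeR adjusted p = 0.482).

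Of the tested cysteine cathepsins, 4 had a positive log2 fold change, Ctsb at 0.03 and Ctsh, Ctsl and Ctsc further from 0, and none of these passed the test by edgeR. Ctsh, an aminopeptidase of lysosomes, had 534, 886, 923, 1013 and 874 normalized counts in juvenile and 588, 383, 292 and 469 in adult libraries. Only juvenile replicate 1 lay within the adult range, and the log2 fold change of 0.97 (SE 0.25) fell just short of the threshold (edgeR adjusted p = 0.0502). DESeq2 placed it past the threshold (0.94, adjusted p = 0.00805), as did edgeR without juvenile replicate 1 (adjusted p = 0.0298) or adult replicate 1 (0.0286). Ctsh passed in no other fit that left out a library, where adjusted p reached 0.127 (edgeR). Ctsl, a broad endopeptidase, had 1159, 2229, 1230.2, 873 and 911 in juvenile and 607, 953, 621 and 797 in adult libraries (log2 fold change 0.78, SE 0.28, edgeR adjusted p = 0.148). Ctsc, the activator of granule serine proteases, had 599.6, 1096, 455, 375 and 632 in juvenile and 503, 436, 260.1 and 436 in adult libraries (log2 fold change 0.63, SE 0.31, edgeR adjusted p = 0.329).

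None of the most abundant proteases passed the test. Ctsz, a carboxypeptidase, had the highest level per kilobase of all members at both ages, and 5004, 6653, 5110.4, 3934 and 4326 normalized counts in juvenile and 7404, 7749, 7161 and 5567 in adult libraries (log2 fold change -0.48, SE 0.18, edgeR adjusted p = 0.163). Ctsb, the main endopeptidase and carboxypeptidase of lysosomes, had 6406, 8094, 5442, 4154 and 4584 in juvenile and 6591, 6357, 5134 and 4349 in adult libraries, means within the error of each other (log2 fold change 0.03, SE 0.21, edgeR adjusted p = 0.970). Ctsd, the main aspartic protease, overlapped as well (3539, 4278, 2732, 2911 and 3431 in juvenile, 5184, 3003, 4232 and 3815 in adult libraries, log2 fold change -0.26, SE 0.19, edgeR adjusted p = 0.547). Ctsa, the protective protein of beta-galactosidase and neuraminidase, did not overlap, with 2931, 3309, 3007, 2726 and 2459.7 in juvenile and 4819, 4213, 3353 and 4009.6 in adult libraries, but missed the threshold (log2 fold change -0.51, SE 0.15, edgeR adjusted p = 0.0920).

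Ctsf had 190.0, 347, 147, 342 and 221 normalized counts in juvenile and 244, 322, 47.4 and 609 in adult libraries, and Ctso had 45.9 to 188 and 61.7 to 437. Neither passed the test (edgeR adjusted p = 0.860 and 0.486). Ctsj, Ctsm and Ctsr, members of a cluster expressed in rodent placenta, had no count, and Ctsq of the same cluster had 1 count in a single adult library. The reference Ctsk, the collagenase of osteoclasts, reached 13550.3 ± 4492 normalized counts per kilobase at the younger and 15069 ± 4464 at the older age (SD, n = 5 and 4), above the 3474 and 4837 of Ctsz, the highest member. Per library its normalized counts were 20574, 30639, 22412, 13021 and 15795 in juvenile and 29940.0, 23882, 23671 and 13646 in adult libraries, and they overlapped between the ages (log2 fold change -0.15, SE 0.26, edgeR adjusted p = 0.846). Summed per kilobase, the cathepsin members reached 7101 ± 1383 across juvenile and 9179.9 ± 853 across adult libraries (SD, n = 5 and 4), 1.29-fold, with overlap.

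Lamp1 and Lamp2, which coat the inner face of the lysosomal membrane and count as general markers of lysosomes, had estimates near 0. Lamp1 had 1273, 3175, 2166, 1817 and 1799 normalized counts in juvenile and 2509, 1716, 1659 and 1918 in adult libraries (log2 fold change 0.07, SE 0.24, edgeR adjusted p = 0.938). Lamp2 had 903, 1328, 1386, 969.6 and 1062 in juvenile and 875, 884, 1173 and 820.2 in adult libraries (log2 fold change 0.27, SE 0.19, edgeR adjusted p = 0.544). The exons of 12 tested members, among them Atp6v1h, Ctsa, Ctsb and Lamp1, overlap another gene on the opposite strand, and the strand setting of the counting is not given in the sources used here.

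**Figure D5:**
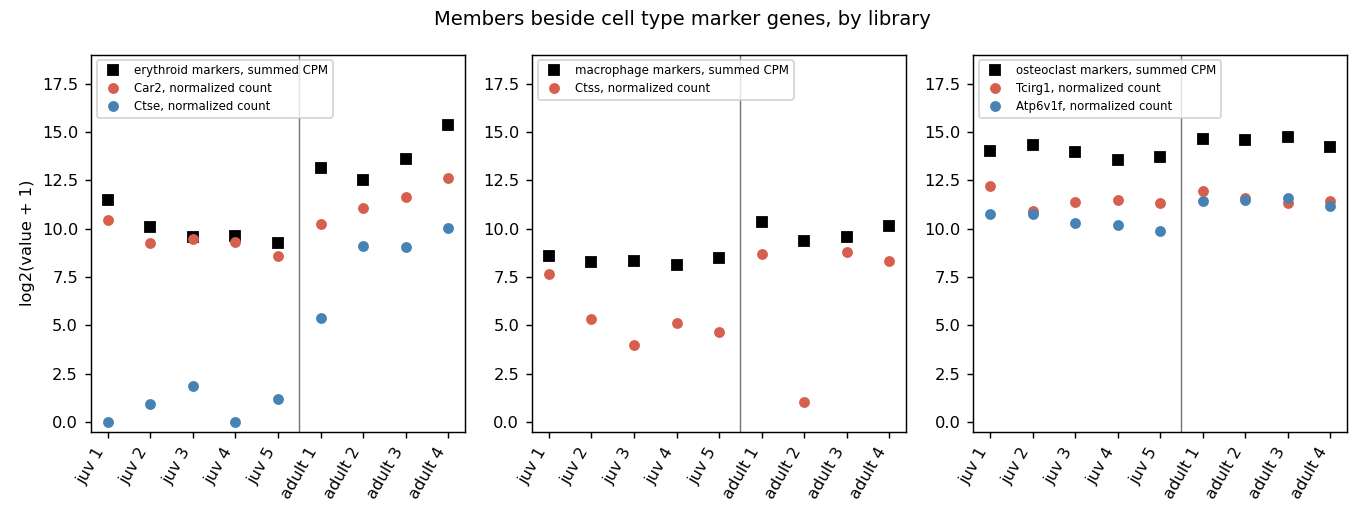
Log2(value + 1) of summed marker CPM (black squares) and of members' normalized counts (circles) in each library (line, border between ages) for erythroid markers with Car2 and Ctse, macrophage markers with Ctss, and osteoclast markers with Tcirg1 and Atp6v1f. Erythroid markers and Car2 are both highest in adult replicate 4, and Ctss drops to 1.05 normalized counts in adult replicate 2, where the macrophage sum, 663 CPM, is mostly Csf1r and the mean log2 CPM of the macrophage markers is 0.05.

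Other lysosomal genes were counted for comparison from lists of 96 genes, of which 89 were tested. Of these, 6 were higher in adult and 0 in juvenile (edgeR, where 3 had an unadjusted p under 0.05 and DESeq2 called 2). That is 6.74% of the lists, against 3.88% called in either direction and 1.89% called higher in adult over all genes tested, and the median log2 fold change was -0.16. In the list of other lysosomal enzymes and cofactors 3 of 35 passed (8.57%, against 3.88% of all tested genes). Among them were Hexa, a lysosomal glycosidase, and Gm2a, a cofactor of ganglioside breakdown. Hexa had 4466, 5548, 4318, 3846 and 4657 normalized counts in juvenile and 7785, 6907, 9703 and 6838 in adult libraries, all higher in the adult group (log2 fold change -0.77, SE 0.16, edgeR adjusted p = 0.0186). Gm2a had 1100.3, 1258, 1206, 1063 and 1111 in juvenile and 2479, 1846, 1660.2 and 1729 in adult libraries (log2 fold change -0.75, SE 0.16, edgeR adjusted p = 0.0236). Of 20 other membrane proteins only Laptm5, which belongs to lysosomes of blood-derived cells, passed (log2 fold change -0.95, SE 0.16, edgeR adjusted p = 0.00754). That share of 5% was near the 3.88% of all tested genes.

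Of 10 tested genes of ruffled border trafficking, 2 were higher in adult (20%, against 1.89% of all tested genes). They were Snx10, a sorting nexin needed by osteoclasts (1671, 1248, 1805, 826 and 1120.1 normalized counts in juvenile, 3182, 3245, 2052 and 2006 in adult libraries, log2 fold change -0.97, SE 0.24, edgeR adjusted p = 0.0437), and Rac2, a small GTPase of blood-derived cells (log2 fold change -1.005, SE 0.26, edgeR adjusted p = 0.0462). None of 17 tested genes of V-ATPase assembly and regulation passed the edgeR test (3 had an unadjusted p under 0.05), none of 3 cystatins and stefins (2 under 0.05) and none of the 4 MiT/TFE factors (0 under 0.05). DESeq2 called 2, 2 and 0 of these lists and limma voom called 0 of each. Tfeb had 140.0, 105, 53.4, 144 and 110.4 normalized counts in juvenile and 169.8, 14.7, 38.8 and 118 in adult libraries, which overlapped (log2 fold change 0.37, SE 0.64, edgeR adjusted p = 0.850). The count of 6 fell to 3 without juvenile replicate 2 or adult replicate 1, to 2 without juvenile replicate 3, 4 or 5 and to 0 without both juvenile replicates 4 and 5. No share over all tested genes was computed for these refits. By DESeq2 the count was 17, where 9.47% of all its tested genes were called.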

How the data were processed

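RNA was isolated with the PicoPure kit, amplified with SMART-Seq v4 and sequenced in pairs after Nextera XT tagmentation. The authors mapped reads to mm10 (GRCm38) with TopHat2 and Bowtie2, and featureCounts is named in the submitters' processing notes, without version, annotation or strand setting. The deposited values are raw counts per Ensembl gene, 1 table per library. Symbols, biotypes and exons came from GENCODE M21, which held 96.2% of the 39179 identifiers.

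Ages were compared across all 9 libraries with edgeR 4.0.16 (R 4.3.3): filterByExpr, TMM scaling, glmQLFit and glmQLFTest without covariates, Benjamini-Hochberg adjustment over 13418 genes and a threshold of 0.05. Normalized counts are counts divided by scaled library size. SE is the log2 fold change divided by the square root of F. Alternatives used DESeq2 1.42.0, limma 3.58.1 and other filters, scalings and library sets. The 36 pairs of libraries all differed by more than sampling noise (smallest chi-square per degree of freedom 16.9). Copies of members were searched with minimap2. Members and lists were chosen with earlier results of these data known. Values in every library are given for called members, paralogs, a fixed set of pump, transport and cathepsin genes and the references, and called genes of the lists are named, except 1 that is not reported here. Other members singled out, and ranges in place of values, were chosen after seeing the data. Counting limits cover counting error only, since reads carried no molecular identifiers.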

Additional observations from a re-analysis of the deposited data

Results flagged for a closer look

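In 7 of 102 groups of libraries examined (each tested member and paralog share within each age), 1 library stood apart from the rest by Dixon's criterion, where chance alone gives about 5.1. Atp6v1a was 2476 normalized counts in juvenile replicate 1 against 1356 to 1612 in the other juvenile libraries, and Ctss was 198 in the same library against 14.7 to 39.8. Ctsl was 2229 in juvenile replicate 2 against 873 to 1230.2. Adult replicate 4 was low for Atp6v1c1, at 759 against 1183 to 1206, and for Atp6v1g1, at 3120.2 against 5191 to 5465. Atp6v1c2 was 88.5 in adult replicate 3 against 34.6 to 43.2. The share of Atp6v0d1 in d subunit counts per kilobase was 39.9% in adult replicate 2 against 41.8 to 42.2% in the other adult libraries.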

How the results depend on the processing

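The count of 5 called members became 15 with DESeq2 (14 higher in adult, 1 in juvenile), 12 with at least 10 counts in every library (11 and 1), a setting that tests fewer genes, and 1 in juvenile replicates 1 to 3 against all adults (Ctse). The count of 6 lysosomal genes from the lists became 17, 11 and 0 in these settings. DESeq2 called 9.47% of all its tested genes. The share over all genes was not computed for the stricter count filter or the smaller set of juvenile libraries. Thinned counts, upper quartile scaling and limma voom added 1 member higher in juvenile, Ctsh. The cause of these shifts was not tested. Leaving out each library in turn gave 2 to 7 called members (2 to 7 higher in adult, 0 to 1 in juvenile), 8 to 15 members without overlap, 15 without juvenile replicate 1 or adult replicate 4, and 2 to 8 lysosomal genes. With fewer libraries the ages separate more easily for any gene. Shares over all tested genes were not computed for these fits, so the counts cannot be set against a background.

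Replicate numbers did not pair the libraries: deviations of same-numbered libraries correlated by -0.03 to 0.03, and not every library correlated best with its own number. With a replicate block 1 member (higher in adult) and 0 listed genes were called, and the share over all tested genes was not computed for this fit.

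Directions that reversed belonged to members that passed no test and whose estimate was smaller than its standard error. They were Tcirg1 without juvenile replicates 4 and 5 (0.0087), Ctsb with voom (-0.0058), and Ctsf with voom (0.046) and with the replicate block (0.098). Ctsf was not near 0 in the main fit (-0.29, SE 0.53). Without each library in turn Clcn7 ran from -0.092 to 0.46, Slc4a2 from -0.38 to 0.017, Tcirg1 from -0.30 to 0.058, Lamp1 from -0.15 to 0.20, Ctsb from -0.12 to 0.13 and Ctsf from -0.67 to 0.27. Without division by length, shares were 88.0% for Tcirg1 in juvenile, 97.1 and 95.5% for Atp6v1c1 in juvenile and adult, 97.7% for Atp6v1g1 in juvenile, and 44.9 and 31.9% for Atp6v0d1. Members without about 10 counts in at least 4 libraries were not tested, and no difference was detectable for them at this depth.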
